A study of Mus musculus with 6 samples.

Results

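Endoderm, mesoderm and epithelial markers were read in embryoid bodies (EBs) that had been differentiated toward spinal motor neurons. The genes were the 10 rows, of 19613 genes measured, whose name was Gata4, Gata6, Sox17, Hnf4a, Afp, Ttr, Pecam1, Kdr, Twist1 or Krt8, and all 10 were found. No threshold on their values entered this rule.

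EBs are aggregates of embryonic stem cells, which can form all germ layers. Retinoic acid directs such aggregates toward neural tissue, and activation of the hedgehog pathway then directs them toward ventral spinal cord. Cells that escape this programme can become primitive or visceral endoderm, which coats untreated aggregates, or mesoderm and its products, among them endothelium, muscle and connective tissue. The zinc finger factors Gata4 and Gata6, the HMG box factor Sox17 and the nuclear receptor Hnf4a specify or maintain endoderm. Afp (alpha-fetoprotein) and Ttr (transthyretin, a carrier of thyroid hormone and retinol-binding protein) are secreted by visceral endoderm and liver. Pecam1, a junctional adhesion molecule, and Kdr, a receptor of vascular endothelial growth factor, mark endothelium and its progenitors. Twist1 is a helix-loop-helix factor of mesenchyme, and Krt8 is a keratin of simple epithelia that is made in visceral endoderm as well. None of these genes is exclusive to its lineage, and Pecam1 is also found on pluripotent cells.

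The samples were 6 arrays in 1 group. Each held RNA from HGB3 stem cell EBs that carried a fluorescent reporter driven by Hb9 (Mnx1), a gene of motor neurons, had been induced with retinoic acid and a hedgehog agonist, and had then been exposed to blood fluid of B6CBA-Tg(HDexon1)62Gpb/3J mice. These mice model Huntington's disease through a transgene with the first exon of human huntingtin, and per the study's methods the donors were male carriers bled before symptom onset. The labels name the fluid plasma, while the title and the methods name it serum. The EBs did not carry the disease transgene, all came from 1 reporter line, and were not sorted, so each array averaged over all cells of the aggregate. In such bulk samples, fewer cells of a type and less RNA per cell cannot be told apart. Arrays of control EBs were not analysed here, so the values describe levels and their spread and not a response to the fluid. The study describes its Huntington samples as separate sera, each added to its own plated EBs, but the labels do not tie the replicates, numbered 2, 4, 5, 6, 7 and 8, to donors or to batches of EBs. The p-values therefore measure the spread between these arrays, in which sera, cultures and technical error cannot be told apart. Genes of the motor neuron lineage were read as a check of the cell type. The log2 intensity was 10.33 ± 0.12 for Isl1, 8.64 ± 0.11 for Lhx3 and 8.48 ± 0.18 for Mnx1 (SD, n = 6). Their mean with the progenitor factor Olig2 was 9.11 ± 0.075 (SD, n = 6), and Olig2 itself lay between 8.84 and 9.17. Of all genes, 88.6% had a lower mean than Isl1, but only 57.8% than Lhx3 and 54.3% than Mnx1. These levels alone do not establish the identity of the cells.

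One array stood apart at low intensities. The median intensity per array lay between 296 and 311, but the lower quartile was 109 in replicate 8 against 121 to 129 in the other arrays. The median log2 intensity of the olfactory receptor (Olfr) genes was 5.44 in replicate 8 against 5.49 to 5.61. Replicate 8 was therefore included and left out in turn for the counts above background, the spreads and the correlations. The genes with a pattern over arrays most like a marker were named with it included.

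The first question was whether the markers rose above the background of the array. Background was taken from the 1032 Olfr genes, which are silent in most tissues outside the nose. The threshold was the 95th percentile of the Olfr means, a log2 intensity of 7.47, and a gene whose own mean of 6 arrays exceeded it was called above background. By this rule 4 of the 10 markers were above background, namely Krt8, Hnf4a, Gata6 and Gata4, against 65.2% of all genes. The remaining 6 markers, Pecam1, Ttr, Twist1, Kdr, Sox17 and Afp, were not. The 4 markers also passed the Olfr 95th percentile of their own array in each of the 6 arrays, as did 62.0% of all genes, and the other 6 markers passed it in 0 arrays. No test was attached to this count, which describes the levels.

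**Figure D1:**
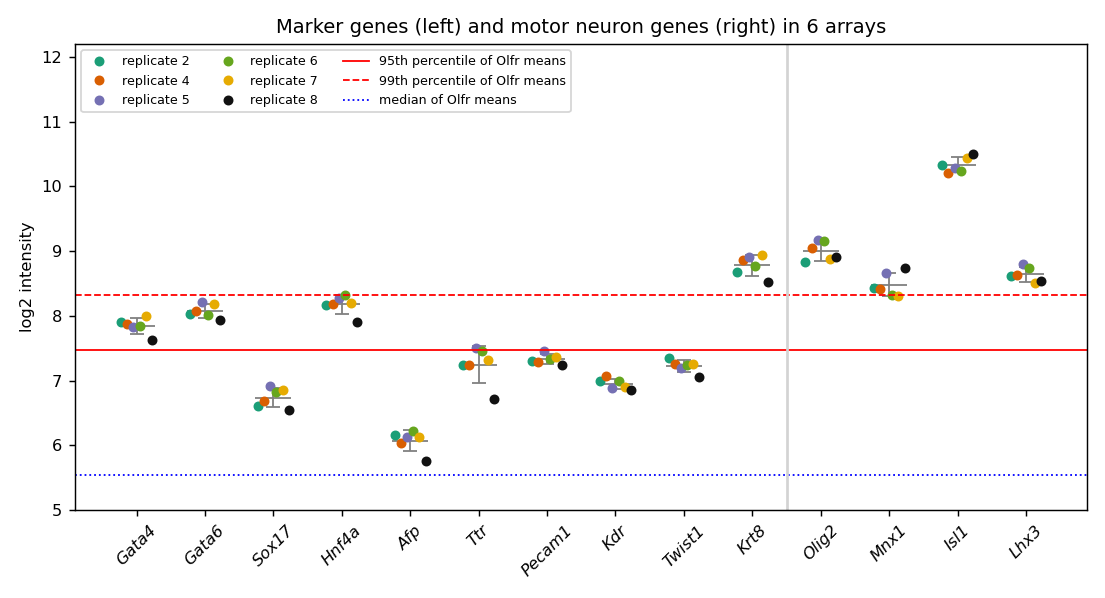
Log2 intensity (vertical axis) of the 10 markers and of 4 motor neuron lineage genes (horizontal axis) in 6 arrays, one coloured point per array, with grey bars for the mean and SD. The red line at 7.47 is the 95th percentile of the Olfr means, the dashed line at 8.33 the 99th percentile and the dotted line at 5.54 their median. Of the markers, Krt8, Hnf4a, Gata6 and Gata4 lie above the red line in all 6 arrays, and the black point of replicate 8 is the lowest for all 10.

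Gata4 had log2 intensities of 7.90, 7.87, 7.82, 7.85, 8.003 and 7.63 in replicates 2, 4, 5, 6, 7 and 8. Its mean of 7.85 ± 0.12 lay 0.38 above the background level (SD, n = 6). Only 23 of the 1032 Olfr genes had a higher mean, whereas 42.1% of all genes had a lower one, so that Gata4 stood at the upper edge of the silent genes and below the middle of the table. Gata6 had 8.03, 8.07, 8.21, 8.02, 8.18 and 7.93, a mean of 8.07 ± 0.11 that was 0.60 above background. For this gene 15 Olfr genes were higher. These factors drive the formation of primitive endoderm, and both were lowest in replicate 8, although Gata6 differed from its next lowest array by only 0.09.

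Sox17 had log2 intensities of 6.60, 6.68, 6.91, 6.83, 6.86 and 6.54. Its mean of 6.74 ± 0.15 differed by -0.73 from the background level, and 151 Olfr genes were higher. Sox17 was thus below the threshold of every array, whereas the Gata factors passed it by a small margin and did not pass the 99th percentile of the Olfr means, 8.33. Hnf4a, the nuclear receptor of visceral endoderm, liver and gut, had 8.16, 8.19, 8.28, 8.32, 8.21 and 7.90, and its mean of 8.18 ± 0.15 was 0.71 above background with 13 Olfr genes higher. Replicate 8 lay 0.26 below the next lowest array of this gene, whereas the other 5 arrays spanned 8.16 to 8.32.

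The secreted endoderm proteins were not above background. Afp had log2 intensities of 6.15, 6.04, 6.12, 6.22, 6.13 and 5.76, a mean of 6.07 ± 0.16 at a difference of -1.40 from the background level (SD, n = 6). As many as 321 Olfr genes had a higher mean than this abundant product of visceral endoderm and fetal liver. Ttr had 7.23, 7.25, 7.504, 7.46, 7.32 and 6.71, with a mean of 7.25 ± 0.28 at -0.22 from the background level and 80 Olfr genes above it. Ttr reached 7.504 in replicate 5, over the level of 7.47, but the Olfr 95th percentile of that array was 7.60. Over the 6 arrays its highest intensity was 1.73-fold its lowest, against 1.16-fold to 1.38-fold for the other 9 markers. This rested on replicate 8, which lay 0.52 below the next lowest array, and without it the SD of Ttr was 0.12, next to 0.13 for Sox17.

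The endothelial markers were likewise within the range of the Olfr genes. Pecam1 had log2 intensities of 7.30, 7.28, 7.46, 7.33, 7.36 and 7.25, with a mean of 7.33 ± 0.074 at -0.14 from the background level. Kdr had 6.99, 7.07, 6.89, 6.99, 6.90 and 6.85, with a mean of 6.95 ± 0.081 at -0.52 from the background level. Replicate 8 was below the next lowest array by only 0.04 for each, and without it their SDs were 0.069 and 0.074. Twist1, the mesenchymal factor, had 7.35, 7.26, 7.20, 7.24, 7.25 and 7.05, with a mean of 7.22 ± 0.098 at -0.25 from the background level. Twist1 was highest in replicate 2, unlike any other marker.

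Krt8 had log2 intensities of 8.68, 8.87, 8.90, 8.76, 8.94 and 8.52, a mean of 8.78 ± 0.16 that was 1.31 above background. It was the one marker that also passed the 99th percentile of the Olfr means, 8.33, a level passed by 48.6% of all genes. The RefSeq gene table lists a pseudogene of the keratin, Krt8-ps, and the methods name no step that separates shared signal, so this value may hold signal of both. Probes differ in affinity, so the order of log2 intensities among these genes is not an order of transcript amounts. The count of markers above background depended on the silent genes used: with the 95th percentile of the 162 vomeronasal receptor genes, a log2 intensity of 6.87, 8 of the 10 markers passed, as did 76.4% of all genes. Sox17 and Afp were the 2 that did not.

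The start regions of Hnf4a and Krt8 are given because both genes are above background and are compared across arrays below, and both windows hold a motif of the Gata factors. RefSeq windows of assembly GRCm38.p6, from 250 bases before to 50 after a transcription start, were at hand for 5 of the 10 markers. Hnf4a has an upstream and a downstream start, and the mean over all exons of a gene does not tell which was used. The motif searched was AGATAA, bound by factors such as Gata4 and Gata6, which occurs on either strand in 11.2% of all 32851 windows. Capitals mark matches, with each window read 5′ to 3′ on the strand of the gene.
Hnf4a upstream start, chr2:163506607-163506906, plus strand: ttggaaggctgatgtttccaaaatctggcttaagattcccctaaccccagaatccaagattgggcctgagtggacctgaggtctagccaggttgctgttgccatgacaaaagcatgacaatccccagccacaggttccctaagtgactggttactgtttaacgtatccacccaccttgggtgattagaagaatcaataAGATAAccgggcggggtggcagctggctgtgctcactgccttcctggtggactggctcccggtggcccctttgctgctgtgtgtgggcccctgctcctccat
Krt8, chr15:102004293-102004592, minus strand: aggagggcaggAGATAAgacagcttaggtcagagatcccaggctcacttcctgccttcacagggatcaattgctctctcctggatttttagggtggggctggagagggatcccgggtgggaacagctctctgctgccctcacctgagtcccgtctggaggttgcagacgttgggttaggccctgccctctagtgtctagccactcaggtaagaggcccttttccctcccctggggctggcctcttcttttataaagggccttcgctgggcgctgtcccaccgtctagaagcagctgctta
The upstream Hnf4a window held 1 AGATAA at base 199 and the Krt8 window 1 at base 12, counted from the first base printed. The windows of the downstream Hnf4a start, Afp, Kdr and Twist1 held none. The windows held 4 CpG dinucleotides at each Hnf4a start, 3 for Afp, 6 for Krt8, 19 for Kdr and 27 for Twist1. The median was 7 over all windows and 20 over those of genes above background. A match describes the letters of the window and not binding.

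The next question was how the rest of each lineage stood. From 10 lists of endoderm, mesoderm and epithelial genes, 136 genes were in the table, the markers among them, and 61 of these, 44.9%, were above background, against 65.2% of all genes. Their median level was a log2 intensity of 7.32, against 8.26 for all genes. By contrast, 12 of 12 motor neuron genes and 9 of 10 neural progenitor genes were above background, the exception being Pax6 at 6.89 ± 0.10 (SD, n = 6). The motor neuron list ran from 8.48 for Mnx1 to 12.95 for Nefl. Its genes Nefl, Nefm, Tubb3 and Stmn2 are not particular to motor neurons, and its factors Mnx1 and Lhx3 lay below Krt8 at 8.78. The share in the non-neural lists ran from 33.3% for definitive endoderm and gut to 71.4% for primitive and parietal endoderm.

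**Figure D2:**
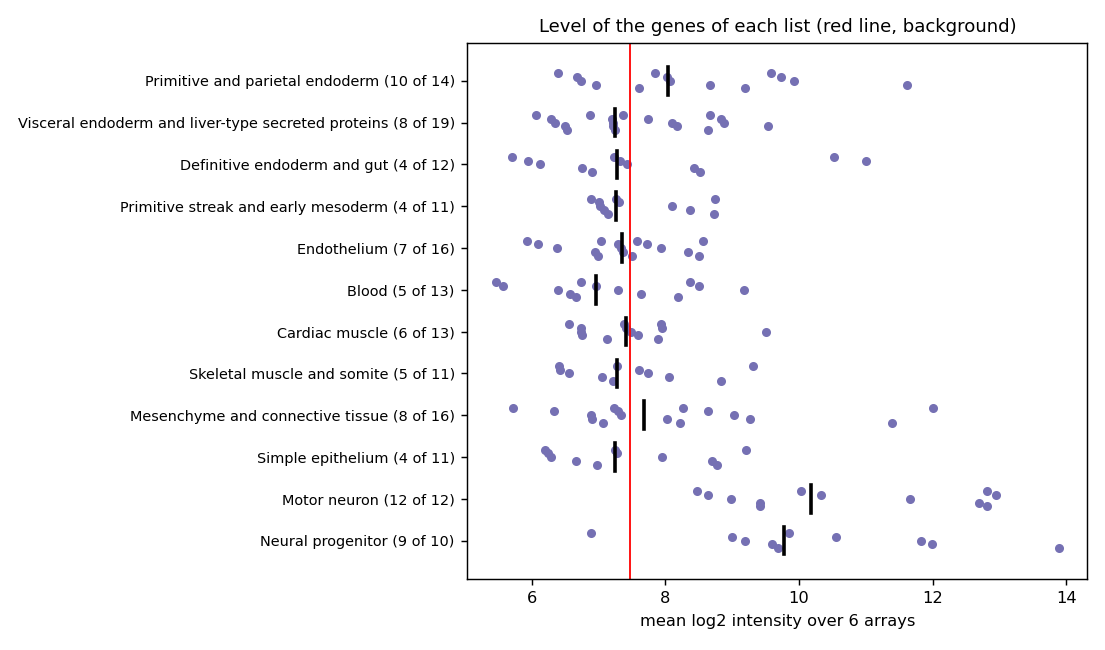
Mean log2 intensity over 6 arrays (horizontal axis) of the genes of 12 lists (vertical axis), one point per gene, with a black bar at the median of each list and the red line at the background level of 7.47. Counts after each name give genes above background of genes measured. The medians of the motor neuron and neural progenitor lists, at 10.18 and 9.77, lie to the right of those of all 10 non-neural lists.

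In the primitive and parietal endoderm list, 10 of 14 genes were above background, Gata4 and Gata6 among them. Sparc, a matrix glycoprotein, was at 11.62 ± 0.11, the plasminogen activator Plat at 9.93 ± 0.024, and the laminin chains Lamc1 and Lama1 at 9.74 ± 0.049 and 9.58 ± 0.049 (SD, n = 6). These are also made by many other cells, Plat by neurons among them. The adaptor Dab2 was above background too, at 8.02 ± 0.11. The factor Sox7, at 6.67 ± 0.11, and the receptor Pdgfra, at 6.39 ± 0.098, were not, like Sox17.

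In the list of visceral endoderm and liver-type secreted proteins, 8 of 19 genes were above background. The endocytic receptor Lrp2, which neuroepithelium also makes, was at 9.53 ± 0.045. The apolipoproteins Apoa4 and Apoa1 were at 8.87 ± 0.17 and 8.67 ± 0.20, and the retinol-binding protein Rbp4 was at 8.84 ± 0.13. Albumin (Alb) at 7.21 ± 0.14, the fibrinogen chains Fga and Fgb at 6.35 ± 0.19 and 7.20 ± 0.15, and Apob at 6.53 ± 0.13 were not above background. The apolipoproteins Apoa2 at 7.21 ± 0.12, Apom at 6.87 ± 0.15 and Apoc2 at 6.29 ± 0.21 were not above background either. Thus Hnf4a lay above the Olfr level with Apoa1 and Apoa4, while Afp, Ttr, Alb and the other apolipoproteins of the list did not.

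In the list of definitive endoderm and gut, 4 of 12 genes were above background. The forkhead factors Foxa1 and Foxa2 had log2 intensities of 11.00 ± 0.055 and 10.53 ± 0.089, and both genes are also expressed in the floor plate, a ventral midline tissue induced by hedgehog signalling. Eomes at 8.52 ± 0.19 and Cdx2 at 8.42 ± 0.14 were the other 2. The factors Foxa3, Gsc, Hhex and Pdx1, at 7.32 ± 0.19, 7.24 ± 0.022, 6.13 ± 0.15 and 7.43 ± 0.13, and the secreted antagonist Cer1, at 6.76 ± 0.31, were not above background. In the list of primitive streak and early mesoderm, 4 of 11 genes were above background, namely Tcf15 at 8.74 ± 0.18, Evx1 at 8.73 ± 0.18, T at 8.37 ± 0.19 and Fgf8 at 8.10 ± 0.18. Evx1 is also a factor of spinal interneurons. The mesoderm factors Mixl1, Mesp1, Mesp2, Tbx6, Msgn1 and Meox1 had means between 6.89 and 7.31, below the background level.

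In the endothelium list, 7 of 16 genes were above background: Eng at 8.56 ± 0.15, Tie1 at 8.503 ± 0.15, Egfl7 at 8.34 ± 0.13, Robo4 at 7.94 ± 0.19, Cdh5 at 7.72 ± 0.10, and the factors Fli1 at 7.57 ± 0.14 and Sox18 at 7.49 ± 0.22. Sox18 passed the threshold of its own array in 3 of the 6 arrays and Fli1 in 5. The angiopoietin receptor Tek, at 6.09 ± 0.094, the claudin Cldn5, at 5.92 ± 0.14, and the factors Etv2 and Erg, at 6.996 ± 0.18 and 7.29 ± 0.19, stood with Pecam1 and Kdr among the genes below background. In the blood list, 5 of 13 genes were above background, with the factors Runx1 at 9.17 ± 0.16, Lmo2 at 8.499 ± 0.077 and Tal1 at 8.19 ± 0.16 and the embryonic globin Hba-x at 8.38 ± 0.13. Runx1 and Tal1 are also used by classes of spinal neurons. The erythroid factors Gata1, at 6.67 ± 0.18, and Klf1, at 6.39 ± 0.15, and the embryonic globin Hbb-bh1, at 5.56 ± 0.13, were below background.

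In the cardiac list, 6 of 13 genes were above background, led by the factor Nkx2-5 at 9.51 ± 0.067, with Tnnt2 at 7.95 ± 0.14, the calcium channel Ryr2 at 7.93 ± 0.038 and Hand2 at 7.90 ± 0.13. The factors Hand1 and Tbx5, at 7.41 ± 0.20 and 6.56 ± 0.13, were not above background. In the list of skeletal muscle and somite, 5 of 11 genes were above background: Uncx at 9.32 ± 0.084, Acta1 at 8.83 ± 0.15, Pax1 at 8.06 ± 0.12, Myod1 at 7.73 ± 0.17 and Pax7 at 7.61 ± 0.16. The myogenic factors Myog, Myf5 and Myf6, at 7.28 ± 0.23, 7.21 ± 0.13 and 6.41 ± 0.11, were below the background level.

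In the mesenchyme list, 8 of 16 genes were above background. The proteoglycan Dcn was at 12.01 ± 0.058 and fibronectin (Fn1) at 11.40 ± 0.052, and the factors Twist2 and Snai2 were at 9.26 ± 0.11 and 9.03 ± 0.098. Twist1 differed from its paralogue Twist2 in its side of the background level, and the factors Prrx1 and Snai1, at 6.91 ± 0.19 and 6.88 ± 0.079, were below background with it. In the list of simple epithelium, 4 of 11 genes were above background, namely the cadherin Cdh1 at 9.20 ± 0.11, Krt8, the claudin Cldn7 at 8.70 ± 0.23 and Krt18, the partner keratin of Krt8, at 7.94 ± 0.098. Both keratins of the pair were therefore above background, whereas Krt19 at 7.24 ± 0.12 and Epcam at 6.98 ± 0.042 were not.

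The following question was how much each marker varied over the arrays. The SD of the markers had a median of 0.14 on the log2 scale and ran from 0.074 for Pecam1 to 0.28 for Ttr. The median SD was 0.076 over genes above background and 0.15 over genes not above it, so each marker was placed among genes of like level. Ttr stood at the 97.4th percentile of SD in its level bin of 1364 genes, Krt8 at percentile 90.5 and Hnf4a at percentile 81.2, the last 2 in bins of 1279 genes. Pecam1 and Kdr stood at percentiles 11.4 and 11.3. For the remaining 5 markers the percentile lay between 22.8 and 60.3, and 5 of the 10 markers varied more than the median gene of their bin. Much of this spread came from replicate 8. Without it the SD was 0.12 for Ttr, 0.065 for Hnf4a, 0.064 for Afp, 0.070 for Gata4 and 0.054 for Twist1, against 0.28, 0.15, 0.16, 0.12 and 0.098 with it, and the median over the 10 markers was 0.072. Sox17 then had the highest SD, 0.13, and Twist1 the lowest.

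All 10 markers were lowest in replicate 8. Among all genes 36.0% were lowest in this array, as were 50.3% of the 10662 genes with a mean log2 intensity between 6 and 9, the range of the markers, and 34.2% of the Olfr genes. The share depended on level: it was 60.1% between 6 and 7, 66.8% between 7 and 7.5, 32.7% between 8 and 9, and 11.8% above 10. In the 10 non-neural lists 88 of the 136 genes, 64.7%, were lowest in replicate 8, against 0 of 12 motor neuron genes and 2 of 10 neural progenitor genes. These lists differed in level, with medians of 7.32, 10.18 and 9.77, and the share of all genes was 15.3% between 9 and 10. The contrast between the lists is therefore not one between genes of like level. Between replicate 8 and the mean of the other 5 arrays, the median difference was -0.25 over the markers, -0.035 over all genes and -0.14 over the Olfr genes, all in log2 intensity. The differences of the markers ran from -0.64 for Ttr, -0.38 for Afp and -0.33 for Hnf4a to -0.11 for Kdr and -0.10 for Pecam1.

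**Figure D3:**
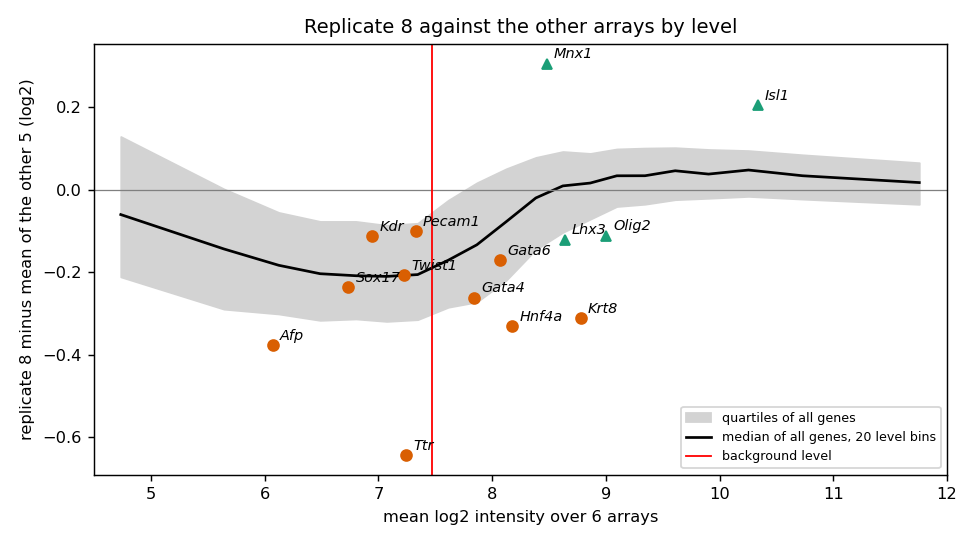
Log2 intensity in replicate 8 minus the mean of the other 5 arrays (vertical axis) against the mean log2 intensity over 6 arrays (horizontal axis), for the 10 markers (orange circles) and 4 motor neuron lineage genes (green triangles). The black line and grey band are the median and quartiles of all genes in 20 bins of level, and the red line is the background level of 7.47. All 10 markers lie below 0, and Ttr, Afp, Hnf4a and Krt8 also lie below the grey band.

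The dip in replicate 8 was compared with the dip of other genes at the same level. A smooth curve over level (loess) was subtracted from each array, after which 5 of the 10 markers were lowest in replicate 8, namely Gata4, Afp, Ttr, Hnf4a and Krt8, against 24.5% of all genes and 27.6% of the genes between 6 and 9. The difference between replicate 8 and the other arrays after this step was -0.44 for Ttr, -0.32 for Krt8, -0.26 for Hnf4a, -0.20 for Afp and -0.13 for Gata4. It was -0.084 for Gata6, -0.033 for Sox17 and -0.0052 for Twist1, and it turned to 0.096 for Pecam1 and 0.094 for Kdr. When each array was instead centred on the median of its Olfr genes, 6 markers were lowest in replicate 8, those 5 and Sox17. The endothelial markers and Twist1 thus fell in replicate 8 no more than other genes of their level, while Ttr, Hnf4a, Afp and Krt8 fell further. No test was made of this single array. Of the 4 genes of the motor neuron lineage, Mnx1 and Isl1 were higher in replicate 8 than in the mean of the other arrays, by 0.31 and 0.20, whereas Lhx3 and Olig2 differed by -0.12 and -0.11. The part of the shift of this array at low intensities in the differences of the markers was not tested.

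**Figure D4:**
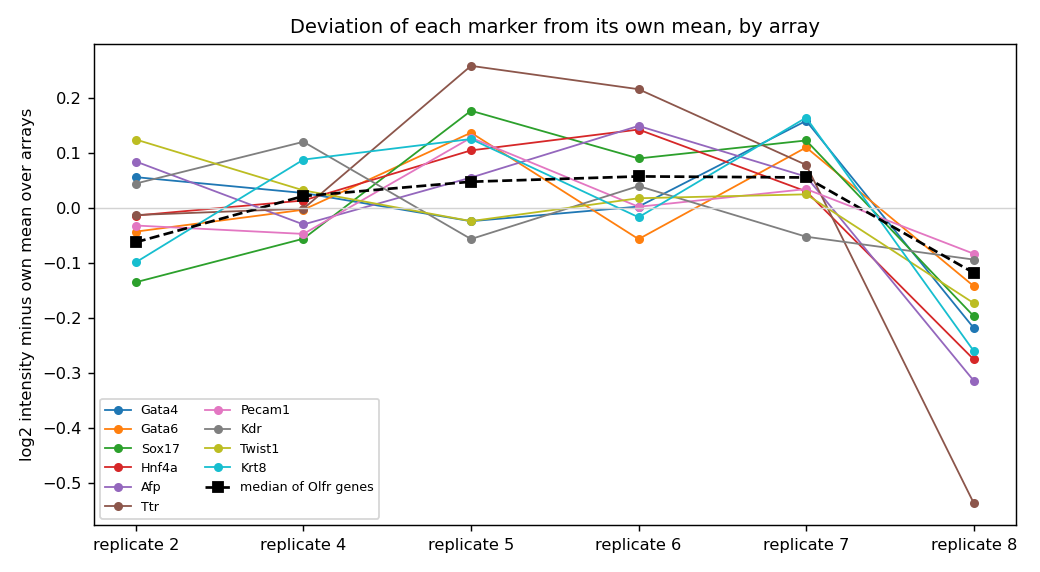
Deviation of the log2 intensity of each marker from its own mean over 6 arrays (vertical axis) by array (horizontal axis), one coloured line per marker, with the dashed black line for the median of the Olfr genes. Replicates have no order, and lines only join the values of a gene. All markers are at their lowest in replicate 8, where Ttr departs most, and the Olfr median is at its lowest there as well.

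The last question was whether the markers varied together over the 6 arrays. Of the 45 pairs of markers, 42 had a positive Pearson's r, and the mean pairwise r was 0.60, against 0.020 over pairs of all genes, 0.21 over genes not above background and 0.11 over genes with a level between 6 and 9. For the 6 endoderm markers the mean over 15 pairs was 0.75, with a lowest value of 0.52, and for the 4 markers above background it was 0.73. The 3 pairs with an r below 0 were those of Kdr with Gata6, Sox17 and Pecam1, at -0.11, -0.12 and -0.27, so the 2 endothelial markers did not vary together. By two-sided exact permutation over 720 pairings, 9 of the 45 pairs had an unadjusted p under 0.05. The share of all gene pairs with such a p is not given here, so these 9 cannot be called an excess. Of the 45 pairs, 0 passed after Benjamini-Hochberg adjustment over all genes measured, with a lowest adjusted p of 0.108. By the same test 0 of the 19612 other genes of the table passed for any of the 10 markers, which is 0.00% for each. The smallest p that 6 arrays allow is 0.00139, and with so many genes tested a single pair at that p does not pass the adjustment.

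These means rested on replicate 8. Without it the mean pairwise r of the 10 markers was 0.020, that of the 6 endoderm markers 0.25 and that of the 4 markers above background 0.17, and 24 of the 45 pairs were positive. After the loess step with all 6 arrays, the means were 0.058, 0.38 and 0.52, and 23 pairs were positive. After centring on the Olfr genes they were 0.19, 0.39 and 0.32. Over genes between 6 and 9 the mean r was 0.049 without replicate 8 and -4.6e-05 after loess. Each mean of the markers thus stayed above 0 but was lower than in the deposited values of all 6 arrays. Without replicate 8 the mean of the 10 markers, 0.020, was below the 0.049 of genes between 6 and 9. Single endoderm pairs turned without this array, such as Gata4 with Ttr from 0.69 to -0.51.

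**Figure D5:**
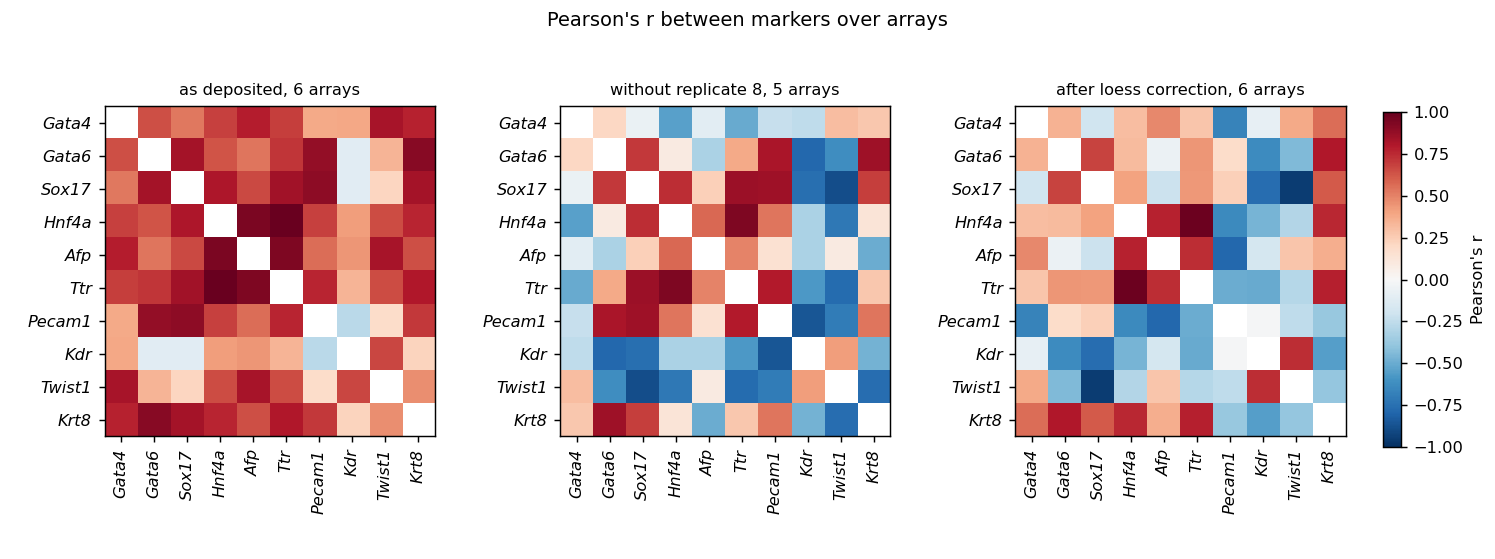
Pearson's r between each pair of the 10 markers over arrays, as colour from -1 (blue) to 1 (red), for the deposited values in 6 arrays (left), without replicate 8 in 5 arrays (middle) and after loess correction in 6 arrays (right). The left panel is red in 42 of 45 pairs and the middle and right panels in 24 and 23, and Ttr with Hnf4a and Gata6 with Krt8 are dark red in all 3.

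The pair with the highest r was Ttr with Hnf4a, a secreted protein and a factor that is known to bind liver-type promoters. Their r was 0.99 (exact permutation p = 0.00556) and Spearman's rho 0.94 (exact permutation p = 0.0167), with adjusted p-values of 0.108 and 0.135 over all genes correlated with Ttr and with Hnf4a. Without replicate 8 the r was 0.94, without replicates 5 and 8, where Ttr lay farthest from its median, 0.98, and after loess 0.98. The r thus stayed high without replicate 8, but Ttr was not above background, and Hnf4a took only rank 41 among the 19612 genes ordered by r with Ttr. The pair was picked as the highest of 45, and the subsets come from the same arrays, so they are not independent evidence of a relation. With the median of the Olfr genes, the r was 0.89 for Ttr and 0.90 for Hnf4a. After centring on the Olfr genes the r of the pair was 0.96. Afp, the other secreted protein, had an r of 0.94 with Hnf4a (exact permutation p = 0.0278) and a rho of 0.60 (exact permutation p = 0.242). Without replicates 6 and 8 its r with Hnf4a was 0.043, so the relation of Afp rested on those arrays.

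Gata6 and Krt8, both above background, had an r of 0.91 (exact permutation p = 0.00972) and a rho of 0.89 (exact permutation p = 0.0333), with adjusted p-values of 0.612 and 0.520 over genes above background. The r was 0.94 without replicates 5 and 7, 0.85 without replicate 8, 0.80 after loess and 0.63 after centring on the Olfr genes. Gata4 and Gata6, which often act in the same cells, had an r of 0.65 (exact permutation p = 0.153) and a rho of 0.37 (exact permutation p = 0.497). Leaving out replicates 7 and 8 turned this r to -0.71, so these 2 factors had no stable relation over the arrays. Sox17 and Pecam1 had an r of 0.89 (exact permutation p = 0.00972) and a rho of 0.94 (exact permutation p = 0.0167), which was 0.84 without replicate 8, 0.87 without replicates 5 and 8, and 0.24 after loess, both genes being below background.

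The markers were also set against the background itself. The r of each marker with the median of the Olfr genes ranged from 0.26 for Kdr and 0.41 for Twist1 to 0.90 for Krt8, 0.90 for Hnf4a and 0.92 for Sox17. For Hnf4a the rho was 0.94 (exact permutation p = 0.0167 for rho and 0.00694 for r) and for Sox17 it was 0.77 (exact permutation p = 0.103 for rho and 0.00833 for r). For Krt8 it was 0.66 (exact permutation p = 0.175 for rho and 0.0167 for r). With the 2 arrays of most extreme Olfr median removed, the r of Hnf4a was 0.62 and that of Sox17 0.81, whereas that of Krt8 fell from 0.90 to -0.10. Without replicate 8 alone the r was 0.71 for Hnf4a, 0.87 for Sox17 and 0.73 for Krt8. It turned to -0.91 for Twist1, -0.39 for Kdr and -0.028 for Gata4, and for the remaining markers it lay between 0.067 and 0.68. Over all genes except the Olfr genes, 20.8% had an unadjusted p under 0.05 for this relation and 0.00% an adjusted one, and the adjusted p of the markers ranged from 0.133 to 0.753. How far the shift of silent genes between arrays entered the covariation of the markers was not tested.

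Finally, the markers were compared with the 4-gene mean of Olig2, Isl1, Mnx1 and Lhx3. In the study the levels of these genes entered a linear model for each target gene that corrected for batches of neurons, whereas a plain mean was taken here. For Gata4 the r was -0.69 (exact permutation p = 0.126) and the rho -0.94 (exact permutation p = 0.0167), and without replicates 5 and 8 the r was -0.87. Its direction was the same in every setting run, with an r of -0.92 after median centring (exact permutation p = 0.00139, the smallest possible), -0.88 after quantile normalization (exact permutation p = 0.0264), -0.88 after loess (exact permutation p = 0.0319) and between -0.96 and -0.55 with an array left out. The adjusted p of Gata4 in these settings lay between 0.767 and 1, so none passed over all genes above background. Among the other markers the r ran from -0.63 for Twist1 to 0.40 for Pecam1. In the deposited values none of the 10 markers had an unadjusted p under 0.05 for r, as 4.71% of the 12789 genes above background and 4.08% of all genes did, and the adjusted p was 0.9995 for each of the 4 markers above background. For Hnf4a, Gata6 and Krt8 the direction depended on single arrays, as for Hnf4a, whose r was -0.099 in 6 arrays and 0.67 without replicate 8. No relation between a marker and the motor neuron mean passed the adjustment with 6 arrays.

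Genes with the pattern over arrays most like that of each marker above background were named by their r over the 6 arrays, among 12792 genes above background. For Gata4 these were Prima1, Pbx4 and Wfdc5, each at 0.99, and for Gata6 they were Nlrx1, Osgin1 and Rpain, each at 0.99. For Hnf4a they were Cox8c at 0.998 and Slc11a1 and Ankrd39 at 0.996, and for Krt8 they were 4930564D02Rik at 0.99 and Apitd1 and Gm4763 at 0.98. For the mean of the 4 markers they were Slc2a9, Zfp213, 2300005B03Rik, Hcst and Dedd2, each at 0.99. No gene of the lists was among them. They were picked as the highest of so many r values over 6 arrays, so the height of their r is not evidence of a relation. After loess the r of Cox8c and Ankrd39 with Hnf4a was 0.99 for each and that of Slc11a1 was 0.61. That of Prima1, Pbx4 and Wfdc5 with Gata4 was then 0.89, 0.88 and 0.98. For the genes named it lay between 0.92 and 0.95 with Gata6 and between 0.95 and 0.99 with Krt8.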

How the data were processed

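Expression was measured in 6 samples of 1 group on Affymetrix mouse exon arrays. The deposited table gives each gene 1 intensity per array, not log-transformed. Per the study's methods, the authors derived them by Robust Multi-array Averaging (RMA) in the Aroma Affymetrix package as the mean over all exons of a gene in the Affymetrix annotation, and the submitters' processing notes also name Affymetrix Expression Console. The authors screened each batch for outlying arrays, and whether this group was screened, which arrays were normalized together and the genome build are not given in the sources used here. The later log2 ratios to a model on non-carrier serum are not part of these values. No array or culture batch is given, so no relation was recomputed within batches. Precision is limited by the number of arrays, since intensities carry no read depth.

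Log2 of each intensity was taken without a pseudocount, in Python 3.11.15 with numpy 2.4.6, scipy 1.17.1, pandas 2.3.3 and statsmodels 0.14.6. Background was the 95th percentile of the means of 1032 Olfr genes. Altered gene names were restored for 1207 genes, and RefSeq tables (GRCm38.p6) gave symbols, coordinates and promoter windows. SDs were compared within 10 bins of level above and 5 below background. Correlations over arrays used two-sided exact permutation tests with Benjamini-Hochberg adjustment over all genes above background or, where stated, over the whole table. The loess correction used a span of 20% of genes. The steps were tested on simulated data. Alternatives were other background genes and percentiles, median, quantile, loess and Olfr centring, a pseudocount of 16, Spearman's rho, and each array left out. The Olfr centring and the relation to the Olfr median were chosen after seeing the data. All 10 markers are named, and from each list up to 4 genes with the highest mean above background and its transcription factors. For the pattern over arrays, the 3 genes with the highest r are named for each marker above background and 5 for their mean. Other list genes were named after their values were seen. The markers and lists were chosen with earlier results of these data known. Of the fixed list genes, Cxcr4, Nkx2-1, Hba-a1, Myh6 and Krt7 were not analysed here.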

Additional observations from a re-analysis of the deposited data

Results flagged for a closer look

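Among 22 sets of 6 values, for the 10 markers and 12 gene lists, 4 had 1 array far from the others by Dixon's ratio of the gap to the range. Chance gives about 1 in 20, or 1.1 sets, if no array is shifted as a whole. Of all genes with a mean log2 intensity between 6 and 9, however, 50.3% were lowest in replicate 8. The share of all genes past this ratio is not given here, so the 4 sets cannot be called an excess. In each of the 4, the array was replicate 8. Ttr was at a log2 intensity of 6.71 there, with a ratio of 0.66, and Hnf4a at 7.90, with a ratio of 0.626, just past the critical value. The mean of the list of visceral endoderm and liver-type secreted proteins, which contains Ttr, Hnf4a and Afp, was 7.34 in replicate 8 against 7.54 to 7.64 in the other arrays, with a ratio of 0.67. The mean of the blood list was 7.004 against 7.20 to 7.29, with a ratio of 0.69. The sets are not independent, since the list of secreted proteins shares members with the markers and all sets share the arrays. Replicate 8 also had the lowest median of the Olfr genes, at 5.44, and the part of this shift in the 4 values was not tested.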

How the results depend on the processing

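The count of 4 markers above background was the same under median centring, Olfr centring, the threshold in every array, the log2 of the mean intensity, and each array left out. It was 1 at the 99th percentile of the Olfr means and 8 with vomeronasal receptor genes. At the 99th percentile, passed by 48.6% of all genes, 6 of 14 primitive and parietal endoderm and 5 of 19 visceral endoderm and liver-type genes passed. So did 3 of 16 endothelium, 3 of 13 blood, 1 of 13 cardiac, 2 of 11 skeletal muscle and somite and 5 of 16 mesenchyme genes. The counts were 4 of 12 for definitive endoderm and gut, 3 of 11 for primitive streak and 3 of 11 for simple epithelium. With vomeronasal receptor genes, 76.4% of all genes passed, as did 14 of 19 visceral endoderm and liver-type and 8 of 12 definitive endoderm and gut genes. So did 11 of 11 primitive streak, 13 of 16 endothelium, 8 of 11 skeletal muscle and somite, 14 of 16 mesenchyme and 7 of 11 simple epithelium genes. The counts were 11 of 14 for primitive and parietal endoderm, 7 of 13 for blood and 9 of 13 for cardiac genes. The median SD of the markers lay between 0.072 and 0.15 as each array was left out, the lowest without replicate 8. The mean pairwise r of the markers above background, 0.73, was 0.46 after quantile normalization, 0.48 with Spearman's rho and 0.32 after Olfr centring, and lay between 0.17 and 0.82 as each array was left out, the lowest without replicate 8. The count of marker pairs with an adjusted p under 0.05 was 0 in each setting run. At the 99th percentile 1 marker remained, so no pair could be computed there.

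The r of Gata6 with the motor neuron mean, 0.044, was -0.14 after median centring, -0.086 with Spearman's rho, and between -0.87 and 0.42 with an array left out. That of Hnf4a was 0.14 with Spearman's rho and between -0.60 and 0.67, and that of Krt8 between -0.79 and 0.21. That of Gata4 was negative in every setting run for it, among which Olfr centring was not. It had an unadjusted p under 0.05 by exact permutation after median centring, quantile normalization and loess, with Spearman's rho and without replicate 5. The share of all genes with such a p in these settings is not given here. The r of Pecam1 with Kdr lay between -0.85 and 0.031. The count of markers related to the motor neuron mean at an adjusted p under 0.05 was 0 in each setting run. No paired analysis was possible because there is 1 group. With 6 arrays and most markers at or near the level of silent genes, a small number of endoderm or mesoderm cells cannot be told from none.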
